A study of Drosophila melanogaster with 3 samples.

Results

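A divergent gene-pair promoter is a stretch of DNA from which a gene on the minus strand and a gene on the plus strand start in opposite directions. The sites described here are the summits of Traffic jam (Tj) binding that lay within 500 bp of the annotated transcription start sites of at least 2 different genes on opposite strands. They numbered 1513 of the 10688 summits in the reproducible peak list, a share of 14.2% (95% Wilson interval 13.5 to 14.8, counting error only). Summits within 500 bp of starts on a single strand, called one-direction promoter summits below, numbered 3650, and 5525 summits lay away from promoters.

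The data came from chromatin immunoprecipitation with sequencing on whole adult female Drosophila melanogaster of a transgenic strain, tj-GFP, that stably makes tj fused to eGFP at the C terminus. An antibody against GFP was used on sonicated chromatin of 200 to 800 bp, and the age of the flies is not stated. The samples formed 1 group of 3 biological replicates, all from the same tagged line, so no treated or mutant group was compared. Reproducible peaks are those that passed an irreproducible discovery rate (IDR) analysis of the replicates. Chromatin of all tissues was mixed in each sample, so binding in more cells and more binding per cell cannot be told apart.

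Tj belongs to the large Maf proteins, transcription factors with a basic leucine zipper, and is known in the ovary from follicle cells and other somatic cells, where it controls piwi and adhesion genes. Large Maf proteins recognise a palindromic site built around the core TGCTGAC. The compact fly genome holds many head-to-head gene pairs, often of housekeeping genes, whose promoters are known for the DNA replication-related element (DRE, TATCGATA), for Motif 1 (GGTCACAC) and for the insulator protein BEAF-32, which binds CGATA. GAGA factor, by contrast, binds GAGAG repeats at many developmentally regulated promoters.

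The sequences below are the stretches between the starts of 3 pairs chosen from the strongest ones for their motif content, read 5′ to 3′ on the plus strand of the Release 6 (dm6) genome from the base after the minus-strand start to the base before the plus-strand start. Capitals mark the Maf core on either strand or the DRE. Vm26Ab encodes a vitelline membrane protein of the eggshell, SMSr a relative of sphingomyelin synthase, smid an AAA-type ATPase, SmB a core protein of the spliceosome and KdelR the receptor that returns proteins to the endoplasmic reticulum. The stretch at CG13998/Vm26Ab (chr2L:5956820-5957003) held a Maf core, as did that at SMSr/smid (chr3L:7381475-7381613), where the core lay more than 100 bp from the summit. At SmB/KdelR (chr2L:10426628-10426886) a run of overlapping DREs stood near the KdelR start, more than 100 bp from the summit. The Maf core of this pair's summit window lay outside the stretch.
CG13998/Vm26Ab: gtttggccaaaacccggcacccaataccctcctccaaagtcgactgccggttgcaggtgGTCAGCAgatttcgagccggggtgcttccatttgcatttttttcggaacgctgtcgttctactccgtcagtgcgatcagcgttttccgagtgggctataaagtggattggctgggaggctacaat
SMSr/smid: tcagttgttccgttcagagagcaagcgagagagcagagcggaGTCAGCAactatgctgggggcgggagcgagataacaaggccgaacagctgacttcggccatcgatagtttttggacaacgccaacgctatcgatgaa
SmB/KdelR: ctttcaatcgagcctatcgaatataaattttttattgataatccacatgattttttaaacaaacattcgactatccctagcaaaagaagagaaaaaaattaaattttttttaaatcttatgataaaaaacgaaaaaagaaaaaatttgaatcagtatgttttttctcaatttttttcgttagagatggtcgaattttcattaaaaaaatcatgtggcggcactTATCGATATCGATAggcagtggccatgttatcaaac

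Further sites with the Maf core within 100 bp of the summit are shown with 15 bases on each side of the core, because summits with this core had higher signal than the others. They belong to CG12945/CG8507 (chr3R:9791430-9791466), to Grp170/Vml (chrX:2275427-2275463), a pair of an endoplasmic reticulum chaperone gene and a vitelline membrane-like gene, to CG3437/CG3552 (chr3L:9457872-9457908) and to Phf5a/CG31638 (chr2L:6490851-6490887), where Phf5a encodes a splicing factor. Capitals mark the core.
CG12945/CG8507: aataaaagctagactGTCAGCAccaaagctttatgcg
Grp170/Vml: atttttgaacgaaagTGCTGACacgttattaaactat
CG3437/CG3552: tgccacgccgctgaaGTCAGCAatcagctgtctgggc
Phf5a/CG31638: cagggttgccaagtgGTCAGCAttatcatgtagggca

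The motifs that were more frequent at divergent promoters are shown in 4 complete stretches between starts, chosen after the motif counts were seen. CG3862/dock (chr2L:825862-825968), where dock encodes an SH2 and SH3 domain adaptor, and fws/Lamtor3 (chr2L:17481030-17481230), where fws encodes a subunit of the Golgi COG complex, held the DRE. CG11638/CG3021 (chrX:1026704-1026790) and Klc/CG10984 (chr3L:12750057-12750118), where Klc encodes kinesin light chain, held Motif 1. Capitals mark these motifs on either strand.
CG3862/dock: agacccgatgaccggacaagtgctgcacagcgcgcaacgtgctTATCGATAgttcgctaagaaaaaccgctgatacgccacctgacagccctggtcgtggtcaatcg
fws/Lamtor3: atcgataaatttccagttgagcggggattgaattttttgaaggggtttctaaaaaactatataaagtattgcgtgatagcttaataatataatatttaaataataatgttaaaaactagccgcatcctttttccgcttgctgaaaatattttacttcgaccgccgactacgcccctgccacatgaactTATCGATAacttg
CG11638/CG3021: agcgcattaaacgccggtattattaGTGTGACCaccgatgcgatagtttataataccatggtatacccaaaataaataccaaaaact
Klc/CG10984: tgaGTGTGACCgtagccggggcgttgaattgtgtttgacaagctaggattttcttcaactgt

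The 1513 summits lay in 1450 distinct regions and belonged to 1228 nearest gene pairs. Of these pairs, 949 had 1 summit, 273 had 2 and 6 had 3. In all, 2542 genes, of which 2338 are protein-coding, started within 500 bp of one of the summits. Most summits (1402) had exactly 2 genes in their window and 111 had 3 or more. The window with the most genes, 10, lay in the mod(mdg4) locus, where separately annotated trans-spliced segments start on both strands.

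The label divergent held for most of the sites. The nearest starts faced away from each other, head to head, at 1427 of the 1513 summits (94.3%, Wilson interval 93.0 to 95.4). At the other 86 (5.68%) the starts were on opposite strands but the genes overlapped at their 5′ ends, as at DnaJ-H/Sirt1, which overlap by 508 bp. Protein-coding genes were the nearest on both strands at 1313 summits (86.8%), and a protein-coding and a non-coding RNA gene were the nearest pair at 169 (11.2%). The nearest pair was 2 tRNA genes at 10 summits and a tRNA gene and a protein-coding gene at 9.

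Of all promoter summits, 29.3% (Wilson interval 28.1 to 30.6) were at divergent promoters, although sequence within 500 bp of starts on both strands made up 12.2% of the promoter sequence and 1.65% of the 6 chromosome arms. The density was 686 summits per Mb of such sequence, against 229 per Mb in one-direction promoter sequence and 47.7 per Mb away from promoters. The ratio of the divergent to the one-direction density was 3.25, 2.76 and 2.92 in the 10688 strongest summits of replicates 1, 2 and 3 (2.98 ± 0.253, SD, n = 3). The ratio was not adjusted for the distance to the nearest start. Nor was it adjusted for the number of starts within 500 bp of a position, which is at least 2 in divergent promoter sequence. The divergent share of each replicate's strongest summits was 14.8%, 13.5% and 13.6% (14% ± 0.717, SD, n = 3), highest in replicate 1.

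Counted from the annotation, 3434 gene pairs start head to head within 1000 bp. Of these, 1301 (37.9%, Wilson interval 36.3 to 39.5) had a summit within 500 bp of an annotated start of each gene. Where a gene has several starts, these need not be the starts closest to the partner. The share was 48.2% for pairs at most 500 bp apart. Among protein-coding genes, 2822 of the 5526 in such a pair (51.1%) had a summit within 500 bp of a start, against 1633 of the 8419 in no pair (19.4%) and 31.9% of all 13945 coding genes. One summit between 2 genes counts for both. In the replicates the share was 52.7%, 47.9% and 50.5% for genes in a pair and 19.4%, 18.8% and 19.0% for genes in no pair. The difference of 31.3 ± 2.12 percentage points (SD, n = 3) was far larger than the spread between replicates, but an exact sign-flip permutation test over 3 replicates cannot go below p = 0.25, the two-sided value found here. Leaving out any one replicate, with the list limited to summits matched in both of the others, gave 43.5% to 45.3% for genes in a pair and 16.4% to 16.5% for genes in no pair.

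The share of pairs with a summit changed with the smallest distance between their starts, and not in one direction. It was 48.9% of 513 pairs at 1 to 100 bp, 39.3% of 488 pairs at 101 to 200 bp, 55.9% of 662 pairs at 201 to 300 bp, 53.0% of 472 pairs at 301 to 400 bp and 38.1% of 336 pairs at 401 to 500 bp. At 501 to 1000 bp it was 11.4% of 963 pairs, where the requirement of 500 bp to a start of each gene itself leaves less room. The same order of bins up to 500 bp held for pairs of protein-coding genes, at 52.4%, 46.5%, 62.0%, 57.2% and 42.3%.

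**Figure D1:**
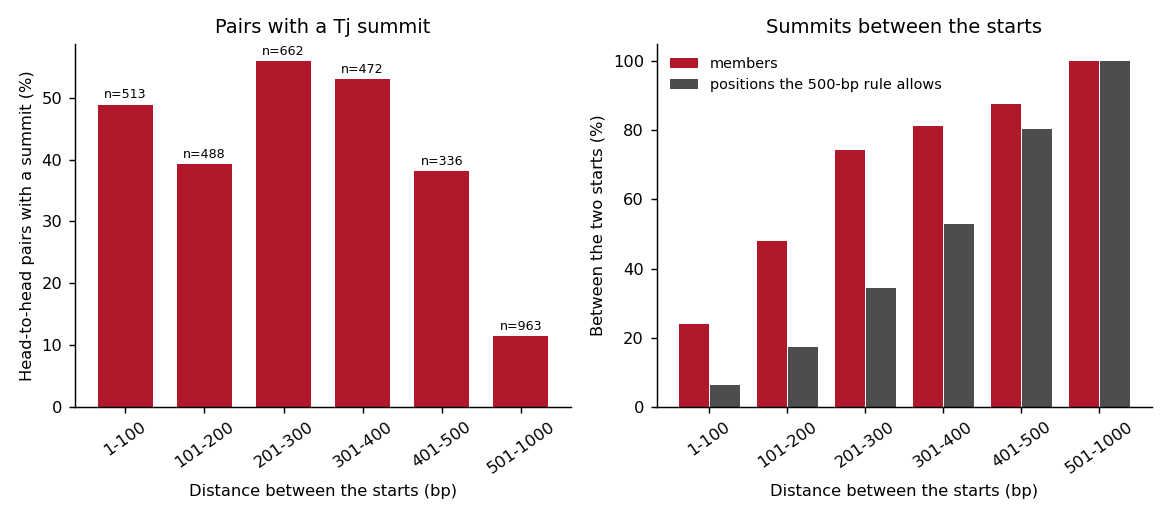
Left, share of annotated head-to-head pairs with a Tj summit within 500 bp of a start of each gene, with the number of pairs over each bar. Bins are of the smallest distance between starts of both genes (bp), and the 201 to 300 bp bin is highest at 55.9%. Right, share of summits between the starts (red) beside the share of all positions that the 500-bp rule allows there (grey). Here the starts are those nearest to the summit on each strand. The red bar is higher in each bin up to 500 bp, and both are 100% in the last.

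Summits at divergent promoters sat close to the starts, and mostly between them. The median distance between the starts at head-to-head summits was 272 bp (quartiles 162.5 and 375, range 1 to 867). It was taken between the starts nearest to the summit on each strand. The summit fell between the starts at 971 of 1427 (68.0%, Wilson interval 65.6 to 70.4), while 36.5% of the positions allowed by the rule at these pairs lie there. Of the 456 summits outside, 215 lay inside the minus-strand gene and 241 inside the plus-strand gene, so the sides were nearly even. By distance, 23.9% of summits lay between starts 1 to 100 bp apart, where 6.28% of allowed positions do, and 74.4% between starts 201 to 300 bp apart, where 34.3% of allowed positions do.

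From the nearer start, the summit lay a median of 80 bp away at divergent promoters (quartiles 37 and 135) and 149 bp away at one-direction promoters (quartiles 64 and 277). Summits within 100 bp of a start made up 61.0% of the divergent and 37.3% of the one-direction promoter summits. Part of this follows from the rule, since the nearer of 2 starts is on average closer than 1 start. The most used bins at head-to-head pairs were the 50 bp just upstream of the nearest start (20.1%) and the 50 bp before those (20%), whereas one-direction summits were spread over both sides with their highest bin just downstream (10.6%).

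**Figure D2:**
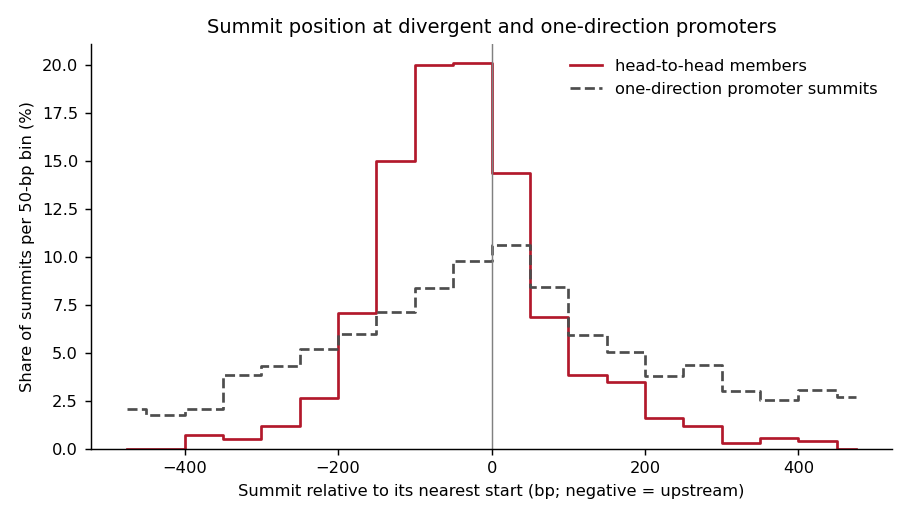
Share of summits (%) in 50-bp bins of the distance to the nearest start, with negative values upstream of it, for 1427 head-to-head summits (solid red) and 3650 one-direction promoter summits (dashed grey). The red line peaks at 20.1% just upstream of the start, and the grey line at 10.6% just downstream.

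At the 169 summits whose nearest genes were a protein-coding and a non-coding RNA gene, 99 were nearer to the coding start and 69 nearer to the non-coding one, with median distances of 168 bp and 197 bp. Where a cytoplasmic ribosomal protein gene was a partner, the summit was nearer to its start at 35 of 52 sites (median 69 bp, against 178 bp to the partner). Where a mitochondrial ribosomal protein gene was a partner, it was nearer at 11 of 38 (median 144 bp, against 108 bp to the partner). Summits with genes of oxidative phosphorylation were nearer to that gene at 19 of 32, those with genes of vesicle traffic at 28 of 53, those with splicing and RNA processing genes at 12 of 25 and those with aminoacyl-tRNA synthetase genes at 8 of 19. These 6 lists are part of those described below, and several summits can belong to 1 pair.

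Signal values are compared as relative signal. This is the peak caller's signal of the strongest replicate summit within 200 bp of a listed summit, divided by that replicate's median, so that 1 is a typical site. The median was taken over the 10265 listed summits that had a replicate summit within 200 bp in all 3 replicate lists. All 3 replicate lists held such a summit for 1441 of the 1513 divergent and 3486 of the 3650 one-direction promoter summits. The replicate summit was shared with a neighbouring listed summit at 31.6% of the divergent and 30.7% of the one-direction sites. The number of reads is not given, so the depth behind each value is unknown.

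The typical signal of the classes could not be told apart. Median relative signal at divergent promoters was 1.10, 0.946 and 0.946 in replicates 1, 2 and 3, against 0.972, 1.01 and 0.992 at one-direction promoters. The difference of the log2 medians was 0.17, −0.10 and −0.07, with a mean of 0.00 ± 0.15 (SD, n = 3; two-sided exact sign-flip permutation p = 1.000, smallest possible 0.25). Replicate 1 went against replicates 2 and 3, and without it the mean difference was −0.08.

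Very strong sites were less frequent at divergent promoters. Relative signal above 4 was reached by 53 divergent summits (3.68%), against 187 one-direction summits (5.36%) and 6.58% of all listed summits. These shares are of summits with a value in every replicate. The highest mean over the 3 replicates was 11.3 at a divergent and 23.5 at a one-direction promoter. Divergent summits held 3 places among the strongest 100 of the list and 34 among the strongest 500 (6.8%), against their 14.2% of the whole list, and one-direction summits held 30 and 147. With the list cut into 5 equal parts by signal, from strongest to weakest, divergent summits made up 10.9%, 15.4%, 16.5%, 14.8% and 13.1%. The 90th percentile of relative signal was 2.97, 2.52 and 2.72 at divergent promoters, against 3.01, 3.08 and 3.19 at one-direction promoters. It was lower in each replicate, by a log2 difference of −0.18 ± 0.14 (SD, n = 3; two-sided exact sign-flip permutation p = 0.25, the smallest possible).

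Recovery in the replicates was similar. Of the divergent summits, 77.9% (Wilson interval 75.7 to 79.9) were matched within 200 bp among the 10688 strongest summits of all 3 replicates, against 75.4% (73.9 to 76.7) of one-direction summits and 76.5% of all listed summits. Since the list was made from the replicates, this match is partly built in. Only 7 of the 1513 were matched in no replicate.

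The strongest divergent site lay between CG17734 and CG5214 on 3R (summit at 11244118, 119 bp from the CG17734 start and 184 bp from the CG5214 start). Its relative signal was 11.41, 9.74 and 12.88 in replicates 1, 2 and 3 (11.34 ± 1.57, SD, n = 3). The next was at Panx/CG9485 on 2R, with 9.06, 7.72 and 9.93 (8.90 ± 1.11), where the summit lay 114 bp inside Panx. Panx, or Panoramix, acts with Piwi in transcriptional silencing of transposons, and CG9485 is the fly glycogen debranching enzyme gene. In both pairs replicate 3 was highest and replicate 2 lowest.

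At sites of an eggshell gene and a mitochondrial gene the order of the replicates was another. CG13998/Vm26Ab had 6.72, 7.47 and 6.69 (6.96 ± 0.44), and CG13992/Ucp4C, with a mitochondrial uncoupling protein gene and starts 814 bp apart, had 5.94, 7.30 and 6.05 (6.43 ± 0.76). Both were highest in replicate 2, and they are near neighbours on 2L, with summits at 5956906 and 5968094. CG4572/CG4686 had 8.08, 7.93 and 9.98 (8.66 ± 1.14), and its summit lay 185 bp inside CG4572.

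Other strong pairs joined genes of unrelated kinds. CG5498/fbl, where fbl encodes pantothenate kinase, had 7.83, 5.82 and 8.12 (7.25 ± 1.25). CtsB/amrt, where CtsB encodes cathepsin B, had 5.85, 5.93 and 8.19 (6.66 ± 1.33). CG31635/Tango1, where Tango1 is needed for the export of bulky secretory cargo, had 6.99, 5.73 and 7.08 (6.60 ± 0.76), and its window held Motif 1. All 3 exceeded 5 in every replicate.

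Adhesion and gene regulation were represented too. Pax/Alp12, where Pax encodes the focal adhesion protein paxillin, had 6.16, 6.63 and 4.32 (5.70 ± 1.22), lowest in replicate 3. lncRNA:CR46075/jing, where jing encodes a zinc finger factor known from border cell migration, had 5.86, 4.51 and 7.46 (5.94 ± 1.48). SmB/KdelR had 5.37, 4.67 and 6.53 (5.52 ± 0.94). Across the 20 strongest pairs the means ran from 4.86 ± 0.66 at Iris/CG4577 to 11.34 ± 1.57, and the Maf core or its palindromic form was found within 100 bp of the summit at 7 of them. CtsB/amrt and elB/lncRNA:CR44733 held only the palindromic form, which allows up to 2 mismatches. Of all divergent windows, 3.77% held the core and 0.925% the palindromic form, against 6.84% and 2.17% of all listed summits.

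**Figure D3:**
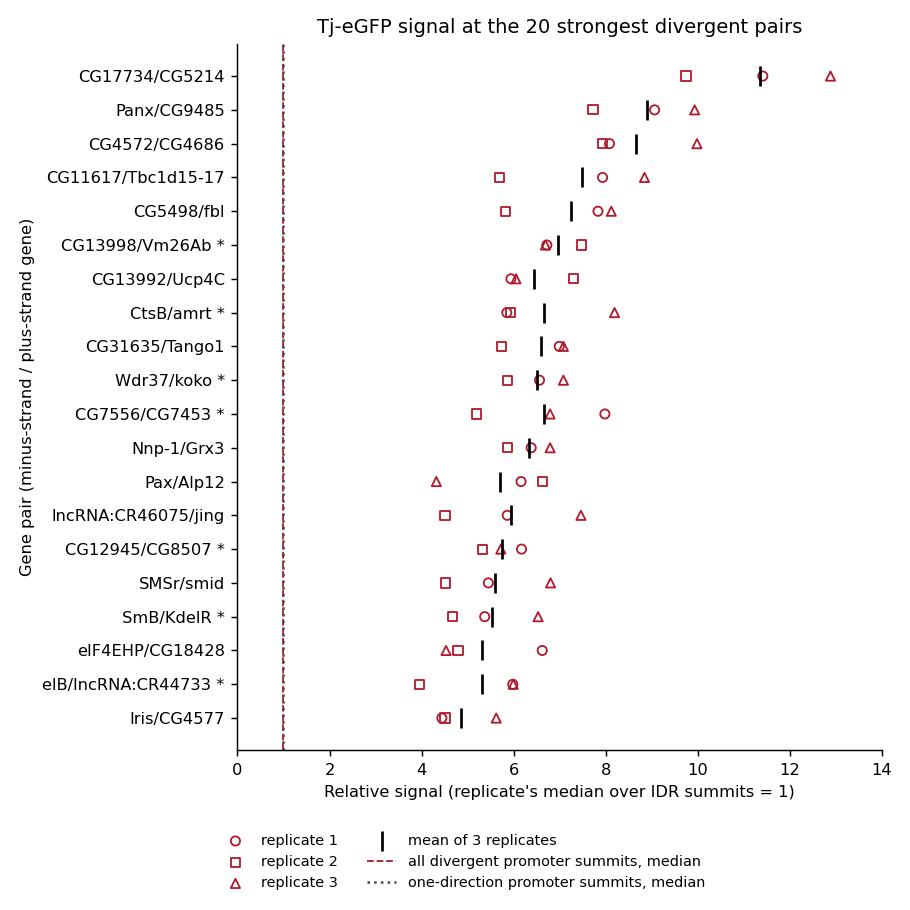
Relative signal of the 20 strongest divergent pairs in replicates 1 (circles), 2 (squares) and 3 (triangles), with the mean as a black bar; pairs with a Maf core or palindromic Maf site near the summit have an asterisk, and the dashed and dotted lines near 1 are the medians of divergent and one-direction promoter summits. The lowest point is 3.96, at elB/lncRNA:CR44733, and CG17734/CG5214 is the highest at a mean of 11.34.

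Among the 100 strongest divergent summits, the replicates were among the closest at Klp3A/Zw10, with 3.39, 3.74 and 3.57 (3.57 ± 0.18), and at Fur1/Vps33B, with 3.77, 3.41 and 3.58 (3.59 ± 0.18). They were among the farthest apart at Acbp1/Piezo, with 2.52, 3.82 and 1.67 (2.67 ± 1.08), and at asRNA:CR43467/CG18011, with 4.03, 1.96 and 4.03 (3.34 ± 1.19). Klp3A and Zw10 both encode proteins of the division spindle and kinetochores. At the other end of the list, PolG2/Polr2C had 0.59, 0.38 and 0.37 (0.44 ± 0.12) and was the last of the 1513 by its signal in the IDR list. By the mean relative signal, divergent summits went down to 0.298.

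Several pairs had 3 summits of unequal height. At mrva/mus312 the summits had mean relative signals of 2.59 ± 0.32, 2.22 ± 0.56 and 0.94 ± 0.47. At Nbr/Noc2, whose starts lie 558 bp apart, they had 1.04 ± 0.36, 0.89 ± 0.17 and 0.69 ± 0.22. Neighbouring summits share replicate values where they lie within 400 bp, so these are not independent.

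The distance between starts ran from 1 bp at Atg6/Pisd, an autophagy gene and the gene of phosphatidylserine decarboxylase, with 0.95, 0.59 and 0.65 (0.73 ± 0.19), to 867 bp at lncRNA:CR45650/CG13631, with 1.97, 1.90 and 1.80 (1.89 ± 0.09). At the limit of the rule, the farther start lay 497 bp from the summit at CG11409/Naa30A (0.67, 0.43 and 0.50), 498 bp at lncRNA:CR45650/CG13631 and 499 bp at EMC6/Hr96 (1.19, 1.03 and 0.89). Just outside were eIF5B/CG46463 at 501 bp (1.16, 0.85 and 0.39), CG3309/XRCC1 at 501 bp (2.97, 2.36 and 3.15) and lncRNA:CR44714/lncRNA:CR44717 at 502 bp (1.57, 1.5 and 1.78). The values inside and outside the limit overlapped.

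Of the genes Fas2, Fas3, shg, CadN, piwi, tj, flam and fs(1)Yb, which include known Tj targets, 1 was at a divergent promoter. Since 16.8% of all coding genes were at one, a count of 1 in so short a list is near the general share. CG2701/fs(1)Yb, where fs(1)Yb is a core component of Yb bodies in the somatic piRNA pathway, had 1.63, 1.65 and 2.02 (1.77 ± 0.22), with a Maf core near a summit 241 bp inside fs(1)Yb. The sequence context of the other members was examined over all 1513 windows.

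Housekeeping promoter elements were more frequent at divergent than at one-direction promoter summits. Windows of 201 bp centred on the summit were searched on both strands. The DRE was in 161 of 1513 divergent windows (10.6%, Wilson interval 9.19 to 12.3), against 89 of 3650 one-direction windows (2.44%, 1.99 to 2.99) and 2.49% of all listed summits. Motif 1 was in 96 divergent windows (6.35%, 5.22 to 7.69), against 89 one-direction windows (2.44%) and 1.82% of all listed summits. The Ohler 7 core CATCNCTA was in 8.13% of divergent and 2.58% of one-direction windows. The DRE and Motif 1 occurred together in 10 windows, and 247 (16.3%) held at least one of them.

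The BEAF-32 letters CGATA, which every DRE contains, were in 44.1% of divergent and 28.2% of one-direction windows. Among windows with no DRE the shares were 37.4% of 1352 divergent and 26.4% of 3561 one-direction windows. TATAAA was in 36.0% of divergent and 20.6% of one-direction windows. GAGAG went the other way, with 16.3% of divergent and 32.2% of one-direction windows. Base composition differed as well, with a median GC content of 36.8% in divergent and 43.0% in one-direction windows, and its part in the shares of these short motifs was not tested. The position of the windows differed too, since 61% of divergent and 37.3% of one-direction summits lay within 100 bp of a start. A divergent window can also cover both starts of a pair. The part of position in the motif shares was not tested.

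The replicates' own strongest summits gave the same order. The DRE share was 10.9%, 9.83% and 10.5% at divergent promoters and 3.13%, 2.04% and 2.81% at one-direction promoters, a difference of 7.73 ± 0.0745 percentage points (SD, n = 3). For Motif 1 the difference was 4.32 ± 0.138 points, for TATAAA 14.5 ± 0.660 points and for GAGAG −15.8 ± 1.06 points. Each of these had the same sign in all 3 replicates, with a two-sided exact sign-flip permutation p of 0.25, the smallest possible. The replicate lists largely hold the same sites, so their agreement measures the calling of peaks and not independent promoters.

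Head-to-head pairs without a Tj summit held these elements as well. At the midpoints of the 1301 annotated pairs with a summit, 10.5% of windows held the DRE, 6.15% Motif 1 and 40.7% TATAAA. At the midpoints of the 2133 pairs with no summit the shares were 5.58%, 3.61% and 37.9%. These sets of pairs differ in the distance between the starts. Of the 963 pairs 501 to 1000 bp apart, 110 had a summit, so most of the widest pairs are in the set without one. Among head-to-head divergent summits, the DRE share was 4.65% at that distance and 7.98% to 13.4% in the narrower bins. The part of this distance in the midpoint shares was not tested. GAGAG was in 16.0% of the midpoints of pairs with a summit and 15.6% of those without. In flanking windows 1000 bp from the divergent summits, the DRE share was 0.430%.

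**Figure D4:**
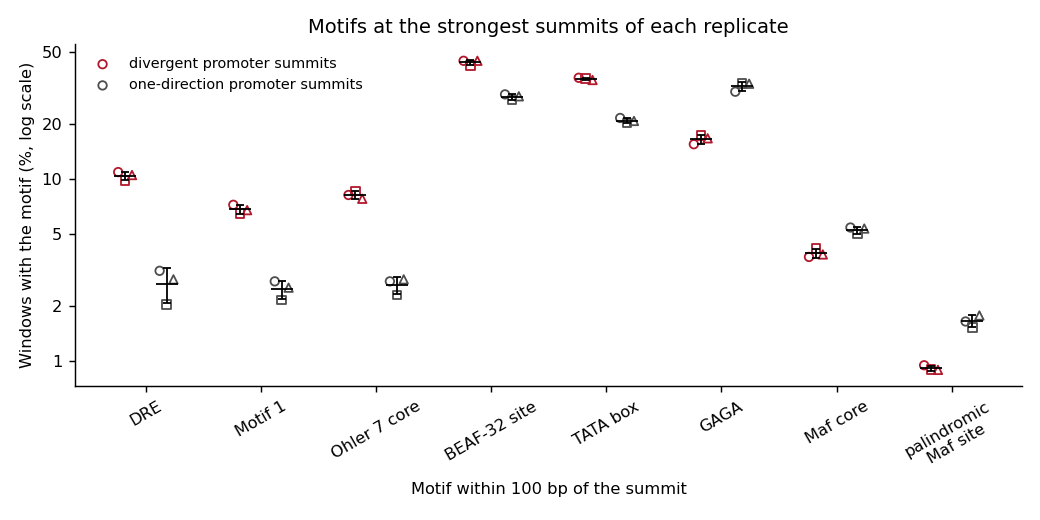
Share of 201-bp windows (%, log axis) that hold each motif at the strongest divergent (red, left) and one-direction (grey, right) promoter summits of replicates 1 (circles), 2 (squares) and 3 (triangles), with mean and SD as black bars. The DRE means are 10.4% and 2.66%, the GAGA means 16.5% and 32.3%, and the Maf core means 3.91% and 5.24%.

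The Maf core was scarcer at divergent promoters than elsewhere in the list. It was in 57 of 1513 windows (3.77%, Wilson interval 2.92 to 4.85), against 191 of 3650 one-direction windows (5.23%, 4.56 to 6), 8.74% of summits away from promoters and 6.84% of all listed summits. In the replicates' own summits the shares were 3.73%, 4.16% and 3.85% at divergent and 5.41%, 4.97% and 5.34% at one-direction promoters (difference −1.33 ± 0.454 points, SD, n = 3; two-sided exact sign-flip permutation p = 0.25). The palindromic Maf site, with up to 2 mismatches, was in 14 divergent windows (0.925%), against 1.67% of one-direction windows. At midpoints of annotated pairs, which differ in the distance between starts as above, the core was in 2.15% with a summit and 1.88% without. In flanking windows 1000 bp from the divergent summits it was in 2.81%. The shorter core TGCTGA was in 13.3% of these flanks and 13% of the divergent summit windows. Median GC content was 36.8% in divergent and 43% in one-direction windows, and its part in the Maf shares was not tested.

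Divergent summits with the core had higher median signal than those without it. The median relative signal of the 54 with the core and a value in every replicate was 1.62, 1.33 and 1.79, against 1.08, 0.939 and 0.933 for the 1387 others. The log2 difference was 0.68 ± 0.23 (SD, n = 3; two-sided exact sign-flip permutation p = 0.25, the smallest possible), positive in all 3 replicates. For the 14 with the palindromic site the medians were 2.14, 2.15 and 2.67, against 1.09, 0.944 and 0.942 for the rest (log2 difference 1.22 ± 0.26, SD).

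Summits with the DRE or Motif 1 had lower median signal than those without it, and summits with the Ohler 7 core did not. With the DRE the median was 0.977, 0.804 and 0.883, against 1.10, 0.970 and 0.955 without it (log2 difference −0.19 ± 0.08, SD, n = 3). With Motif 1 it was 0.902, 0.778 and 0.831, against 1.11, 0.960 and 0.959 without it (−0.27 ± 0.05). With the Ohler 7 core it was 1.19, 0.974 and 1, against 1.08, 0.938 and 0.942 without it (0.10 ± 0.04), higher in each replicate. Each of these 3 differences had a two-sided exact sign-flip permutation p of 0.25, the smallest possible. For TATAAA the log2 difference was 0.00 ± 0.05 and for GAGAG −0.01 ± 0.03, both within the spread of the replicates. Lower signal was not particular to the DRE and Motif 1. The log2 difference was −0.17 ± 0.05 for the GATA site AGATAA and −0.10 ± 0.08 for CGATA, negative in each replicate for both.

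In most housekeeping lists the greater part of the genes with a promoter summit had it at a divergent promoter, and in the lists of regulators a small part did. Of all coding genes, 16.8% started within 500 bp of a divergent summit, which is 52.5% of the 4455 coding genes with any promoter summit. In 20 lists of genes, built from symbols and symbol patterns, 313 of 974 genes were at divergent promoters. Any promoter summit was found for 30.4% (DNA replication, repair and meiosis) to 82.8% (cytoplasmic ribosomal proteins) of a list's genes, beside 31.9% of all coding genes. It was 37.1% for oxidative phosphorylation, 46.7% for mitochondrial ribosomal proteins, 72.4% for gonad soma regulators and 78.9% for basic leucine zipper factors. The shares below are of genes with a promoter summit only. Of the 35 mitochondrial ribosomal protein genes with a summit, 32 (91.4%) had it at a divergent promoter, among them mRpS10, mRpL23 and mRpS23. The share was 28 of 33 (84.8%) for oxidative phosphorylation genes such as ND-ASHI and ATPsyngamma, 23 of 28 (82.1%) for splicing and RNA processing genes such as SmB and U2af50, and 27 of 34 (79.4%) for general transcription genes such as Polr2A.

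Further housekeeping lists were also above the 52.5% of all coding genes. They were the proteasome (13 of 16 genes, 81.2%), aminoacyl-tRNA synthetases (15 of 20, 75%), vesicle traffic (45 of 62, 72.6%), mitochondrial import (5 of 6, 83.3%), DNA replication, repair and meiosis (10 of 14, 71.4%), autophagy and lysosome (17 of 28, 60.7%) and the cell cycle (6 of 10, 60%). For DNA replication, repair and meiosis, 6 genes in place of 10 were at divergent promoters without replicate 1, and likewise without replicate 3. Near or below it were the ubiquitin pathway (15 of 28, 53.6%), chaperones (10 of 20, 50%), cytoplasmic ribosomal proteins (38 of 77, 49.4%) and translation factors (14 of 31, 45.2%).

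Among regulators of the gonad soma with a promoter summit, few were at divergent promoters. Of 21 such genes with a promoter summit, 3 (14.3%) were at one: EcR, which encodes the ecdysone receptor, its partner usp, and dome, the receptor of the JAK/STAT pathway. Of 15 genes of basic leucine zipper factors with a summit, 3 (20%) were, namely Irbp18, maf-S and vri. Cell adhesion and polarity had 4 of 14 (28.6%: mys, Ilk, parvin and par-6), somatic piRNA genes 3 of 9 (33.3%: Panx, fs(1)Yb and mino) and germline piRNA genes 2 of 5 (40.0%: cuff and tud). Not all of these are head-to-head pairs of coding genes. At the strongest sites of parvin and mino the partner was a non-coding RNA gene with overlapping starts, and at those of EcR and tud a tRNA gene.

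The replicates' own summits gave 89.6% ± 2.87 for mitochondrial ribosomal proteins, 84.4% ± 2.88 for oxidative phosphorylation, 51.8% ± 0.341 for cytoplasmic ribosomal proteins and 13.6% ± 3.14 for gonad soma regulators, beside 52.6% ± 1.37 for all coding genes (SD, n = 3). The lists also differ in how many of their genes have a head-to-head partner at all. The share ran from 86.8% of splicing and RNA processing genes to 17.2% of gonad soma regulators. It was 78.7% for mitochondrial ribosomal protein genes, beside 39.6% of all coding genes. Among genes with such a partner, 54.2% of mitochondrial ribosomal protein genes, 62.7% of cytoplasmic ribosomal protein genes and 60% of gonad soma regulators (3 of 5) were at divergent summits, beside 41.8% of all coding genes. Over the 20 lists this share ran from 30% for cell adhesion and polarity to 83.3% for mitochondrial import. It was also below that of all coding genes, at 33.3%, for somatic piRNA, germline piRNA and DNA replication, repair and meiosis genes.

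**Figure D5:**
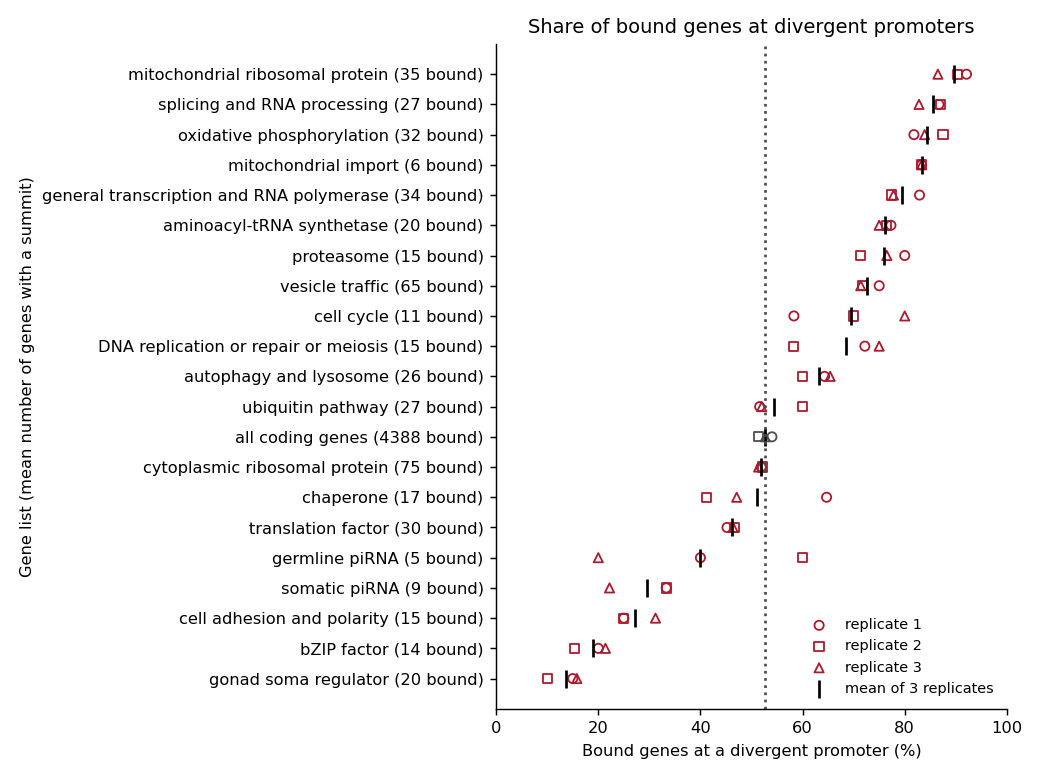
Share of genes with a promoter summit (%) whose summit lies at a divergent promoter, per gene list, in replicates 1 (circles), 2 (squares) and 3 (triangles), with the mean as a black bar; the grey row and the dotted line are all coding genes. Mitochondrial ribosomal proteins are highest at 89.6% and gonad soma regulators lowest at 13.6%, with all coding genes at 52.6%.

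The signal at these sites differed between lists. Summits at cytoplasmic ribosomal protein genes had a median relative signal of 1.95, 1.35 and 1.28, above the median of all divergent summits in each replicate (1.10, 0.946 and 0.946). Those at oxidative phosphorylation genes had 0.802, 0.777 and 0.849, below it in each replicate, and those at mitochondrial ribosomal protein genes 1.11, 0.812 and 0.964. RpL23, with CG13531 as partner, was the strongest of the cytoplasmic ribosomal protein genes (5.13, 3.37 and 5.22), and ND-ASHI/Fum1 of the oxidative phosphorylation genes (3.89, 5.83 and 5.65). Sec23, of the vesicle coat that leaves the endoplasmic reticulum, had 5.87, 3.79 and 4.91 at MTA1-like/Sec23.

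A single pair had both genes in one list, RPA1/Mcm2, which encode a subunit of the single-strand binding protein and a subunit of the replicative helicase. Its relative signal was 1.38, 0.97 and 0.59 (0.98 ± 0.39, SD, n = 3), highest in replicate 1. The lists are short, and the number of such pairs to be found by their sizes alone was not computed. The count therefore does not show whether partners share a list more or less often than other genes.

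Divergent sites were spread over the chromosome arms, with 274 on 2L, 306 on 2R, 285 on 3L, 392 on 3R, 251 on X and 5 on chromosome 4. Of annotated head-to-head pairs, 34.3% on 2L, 34.9% on 2R, 38.9% on 3L, 41.2% on 3R and 41.5% on X had a summit, and 4 of 25 (16.0%) on chromosome 4. Among promoter summits the divergent share was lower on X (24.8%) than on 3R (32.7%).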

How the data were processed

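Per the files' accompanying descriptions, the authors called peaks for each replicate and for the pooled replicates against a control alignment, in relaxed lists of 30000 peaks, and derived the IDR list from them. The labels and headers name no aligner, peak caller or IDR threshold. The deposited signal of each peak is its enrichment as called, and no unit is stated for it. Deposited q-values (−log10 scale) were left aside. Sequencing depth is unknown, and an immunoprecipitation from untagged flies was not analysed here.

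Work used the dm6 lists, starts from Ensembl release 115 (BDGP 6.54) without transposable elements, and sequence from NCBI's Release 6 genome. Motif 1, DRE and other motifs were matched exactly on either strand. Wilson intervals have a confidence level of 95% and cover counting error only. Differences were tested over 3 replicates by exact sign-flip permutation. Named pairs were the 20 strongest, up to 3 per gene list, those with most summits, the extremes of gap, replicate SD and signal, and those at the 500 bp limit. Of 130 symbols written in lists, 126 matched, and Notch, CG9754, Daed and nxf3 did not (N and Panx are in the lists). The other lists came from symbol patterns, which include paralogs. Members, lists and motifs were chosen with earlier results of these data known. Scripts were tested on simulated data. Tools were pandas 2.3.3, NumPy 2.4.6, Matplotlib 3.10.9 and SciPy 1.17.1 on Python 3.11.15.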

Additional observations from a re-analysis of the deposited data

How the results depend on the processing

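The main limits are the distance to a start, the length of the list and the motif window. Within 250 bp of a start there were 837 sites, 73.4% of head-to-head summits lay between the starts, 24.7% of annotated pairs and 43.1% of coding genes in a pair had a summit, the divergent share of replicate summits was 7.55%, and 204 list genes were at divergent promoters. At 1000 bp, 92.7% were head to head, 58.9% lay between the starts and the replicate share was 21.1%. With protein-coding genes only, 97.1% were head to head, the replicate share was 12.2% and 43.0% of pairs had a summit. In the strongest 50% of the list there were 745 sites and 166 list genes, 20.7% of pairs had a summit, 97.9% of sites were matched in all replicates and 5.23% held the Maf core. With pairs at most 500 bp apart, 48.2% of pairs and 56.3% of their coding genes had a summit. Matching within 50 bp gave 46.9% matched in all replicates and within 400 bp 84.9%.

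With 50 bp on each side of the summit, 1.92% held the Maf core, 5.35% the DRE and 2.91% Motif 1, against 3.92%, 1.4% and 1.15% of one-direction summits. With 200 bp, these shares were 6.94%, 17.1% and 13.7%, against 7.56%, 4.49% and 4.52%. The palindromic site was in 0.925%. The DRE, Motif 1 and coding-gene alternatives were chosen after seeing the data.

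The log2 signal difference between divergent and one-direction sites, 0.00202, turned negative at 1000 bp (−0.00732), in the strongest 50% of the list (−0.146), with a match within 400 bp (−0.0685), with head-to-head sites only (−0.000611) and with means (−0.0472). Without a replicate it ran from −0.0782 to 0.0465. The cause was not tested. No version had a p under 0.25. Leaving out a replicate gave 1250 to 1296 sites, 31.9% to 33.4% of pairs and 43.5% to 45.3% of their coding genes, since those lists hold fewer summits. Of 120 alternatives for gene lists, 27 moved a count by over 1.5 times, and 4 of 100 for the strongest pairs, all with a match within 400 bp, moved the mean by over 1 SD. No paired analysis was possible because there is 1 group of samples to compare, and differences between classes of sites were already taken within each replicate. Unknown depth limits every value.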
